A study of Homo sapiens with 12 samples.

Results

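The genes described here encode the proteasome, the barrel-shaped protease that degrades ubiquitin-tagged proteins, in HK-2 cells given a low dose of Ota. A probe set, the group of array probes that reads 1 transcript region, was taken where its only gene symbol began with PSMA, PSMB, PSMC, PSMD, PSME, PSMF or PSMG and a digit. The rule took 97 of 54675 probe sets. Of these, 81 belonged to 42 proteasome genes, and the other 16 to 8 genes that only share the start of the name, such as PSMC3IP and the antisense gene PSMB8-AS1, which were counted apart. In all, 41 of the 42 proteasome genes passed a filter on low values and were tested. PSMA8, the alpha subunit of the testis, lay between 3.04 and 3.17 on the log2 scale on all 12 arrays and was not tested. PSMA6, PSMB11, PSMC5, PSMD7, PSMD13 and PSME2 were not analysed here.

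HK-2 is an established human cell line, made by immortalising epithelium of the kidney's proximal tubule, so every value comes from 1 line. The 12 Affymetrix arrays form 4 groups of 3: vehicle-exposed control cells at 24 h, low-dose Ota cells at 24 h, control cells at 72 h and low-dose Ota cells at 72 h. All groups shared a defined medium with EGF, hydrocortisone, insulin, transferrin and selenite, and exposure began near confluency on the day after seeding. The labels give no concentration, do not spell out Ota, and number the arrays of a group as biological replicates without saying what the cultures shared. The p-values therefore cover the variation among these cultures, which may be partly technical.

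In the core particle, outer rings of alpha subunits (PSMA genes) gate the entrance and inner rings of beta subunits (PSMB genes) hold the active sites. A cap docks on the core: its base of ATPases (PSMC genes) unfolds the substrate, and further base and lid subunits (PSMD genes) bind ubiquitin chains and remove them. In cells exposed to interferon, and in immune cells at rest, the catalytic subunits PSMB6, PSMB7 and PSMB5 are replaced by PSMB9, PSMB10 and PSMB8, which gives the immunoproteasome that shapes peptides for MHC class I. When proteasome capacity runs short, the transcription factor NRF1 (gene NFE2L1) is known to raise the subunit genes together through antioxidant response elements in their promoters.

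The promoters of the 3 immunoproteasome genes are shown because PSMB9 and PSMB10 had the largest falls under Ota among the members and PSMB8 was not called, and that of TAP1, the peptide transporter gene that lies head to head with PSMB9, because its values differed from those of PSMB9. Each line gives the 250 bases before a RefSeq start site (GRCh38.p14), 5′ to 3′ on the gene's strand. Capitals mark matches, on either strand, to CCAAT (the CCAAT box), TGACNNNGC (the core of the antioxidant response element) and the core of the interferon-stimulated response element, 2 GAAA blocks set 2 bases apart.
PSMB9, chr6:32853942-32854191, plus strand: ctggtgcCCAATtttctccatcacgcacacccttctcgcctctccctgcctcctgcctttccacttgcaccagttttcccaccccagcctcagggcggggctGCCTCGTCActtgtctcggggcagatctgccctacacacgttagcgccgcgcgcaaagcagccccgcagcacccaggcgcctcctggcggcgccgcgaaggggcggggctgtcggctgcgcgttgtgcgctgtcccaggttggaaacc
TAP1, chr6:32853705-32853954, minus strand: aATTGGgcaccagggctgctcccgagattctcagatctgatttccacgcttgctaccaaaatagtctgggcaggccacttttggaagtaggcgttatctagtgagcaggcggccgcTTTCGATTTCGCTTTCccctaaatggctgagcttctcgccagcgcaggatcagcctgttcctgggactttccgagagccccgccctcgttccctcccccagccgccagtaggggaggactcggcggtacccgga
PSMB10, chr16:67936851-67937100, minus strand: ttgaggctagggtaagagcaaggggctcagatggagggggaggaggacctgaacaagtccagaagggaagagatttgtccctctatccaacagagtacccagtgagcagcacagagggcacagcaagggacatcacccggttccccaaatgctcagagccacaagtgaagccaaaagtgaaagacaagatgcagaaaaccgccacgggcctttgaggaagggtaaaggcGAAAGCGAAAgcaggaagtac
PSMB8, chr6:32844680-32844929, minus strand: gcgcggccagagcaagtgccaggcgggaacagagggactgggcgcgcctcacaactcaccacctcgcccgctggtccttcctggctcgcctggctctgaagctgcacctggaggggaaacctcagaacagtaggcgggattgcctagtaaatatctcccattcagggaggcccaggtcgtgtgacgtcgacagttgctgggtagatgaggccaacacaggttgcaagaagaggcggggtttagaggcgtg
The PSMB9 window held 1 CCAAT box at position -243 and 1 antioxidant element core at -148, counted from -1 at the base before the start. The TAP1 window shown held 2 interferon element cores that overlap each other, at -134 and -128, and 1 CCAAT box, which is the same stretch of chromosome as that of PSMB9. TAP1 also has 2 start sites, and the PSMB9 start site lies 488 bases from the nearer one, whose window is shown. None of the motifs matched in the window of the other. The PSMB10 window held 1 interferon element core at -21. PSMB8 has 2 start sites in the table, and none of the motifs matched in either window. A match is a description of letters and not a site shown to be used.

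The promoter table held 36 of the 42 proteasome genes, with 43 of its 35116 windows. The antioxidant element core occurred in 25.6% of the proteasome windows and in 10.9% of all windows, and the interferon element core in 9.30% and 3.02%. The CCAAT box occurred in 37.2% and 32.0%. Counted by gene, 11 of 36 proteasome genes held the antioxidant element core, 16 held the CCAAT box and 4 the interferon element core. These were 30.6%, 44.4% and 11.1%, against 13.2%, 37% and 3.71% of all genes with a window. By structure, the antioxidant element core occurred in 2 of 10 core genes and 2 of 13 cap genes with a window. These shares, 20% and 15.4%, were not far from the 13.2% of all genes. Most of the 11 genes with a match were other members.

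Of the whole series, arrays of a group correlated at 0.986 to 0.994 over the tested genes, and no 2 arrays were identical. Cell type markers were also read. All 5 epithelial markers (KRT8, KRT18, KRT19, CDH1, EPCAM) passed the filter, but of 10 measured markers of the proximal tubule only PAX8 did, and the receptors and transporters LRP2, CUBN, AQP1 and SLC34A1 stayed at or below 3.38 on every array. Of 6 measured leukocyte markers only CD74 passed, and PTPRC, HLA-DRA, CD3E, CD14 and LYZ stayed at or below 3.04. The leukocyte markers' summed log2 level was 19.3 to 19.6 in control and 19.2 to 19.8 in Ota arrays at 24 h, and 19.5 to 20.0 and 19.3 to 20.0 at 72 h. The summed level of 4 fibroblast markers, of which COL1A1 and DCN passed, was 25.4 to 25.6 in control and 24.8 to 25.3 in Ota arrays at 24 h, and 22.5 to 23.1 and 23.8 to 24.2 at 72 h. These fibroblast sums did not overlap at either time, with Ota arrays lower at 24 h and higher at 72 h. The epithelial markers' summed level was 56.4 to 58.3 in control and 55.3 to 57.1 in Ota arrays at 24 h, and 57.7 to 58.6 and 56.1 to 56.7 at 72 h, where the groups did not overlap. KRT18 (-0.39 ± 0.11, adjusted p = 0.0183) and KRT19 (-0.41 ± 0.13, adjusted p = 0.0293) fell at 24 h, and KRT18 (-0.87 ± 0.11, adjusted p = 0.000182) and CDH1 (-1.11 ± 0.23, adjusted p = 0.0039) at 72 h. Not called were KRT8 (-0.19), CDH1 (-0.50) and EPCAM (0.29) at 24 h. At 72 h these were KRT8 (-0.25), EPCAM (0.04) and KRT19 (0.32 ± 0.13, adjusted p = 0.0777). The fibroblast marker DCN was called higher at 72 h (1.09 ± 0.29, adjusted p = 0.0141), and COL1A1 was not called at either time. The part of these shifts in the results was not tested.

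At 24 h, Ota cells had less mRNA of part of the proteasome, and the immunoproteasome subunits PSMB9 and PSMB10 showed the largest falls among the members. In limma, 12 of 41 members were lower in Ota cells at 24 h, and 0 were higher, where 1 was higher at an unadjusted p below 0.05. Over all 10699 genes tested, 21.6% were lower and 9.44% higher, so the members' share of lower calls, 29.3%, was not far from the background. The count depends on the probe set read: with a gene's probe sets averaged 7 members were higher and 10 lower, with PSMA5 turned to 1.87 and PSMD11 to 1.08, and with every probe set on its own 9 of 68 were higher and 19 lower. The members' median log2 fold change was -0.17, against -0.06 over all genes. In such bulk samples, fewer cells that make an mRNA and less of it per cell cannot be told apart. By class, 2 of 13 core genes, 6 of 14 cap genes and 2 of 3 immunoproteasome genes were lower, with medians of -0.16, -0.18 and -1.23. These counts describe the lists, and a difference between them was not tested.

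PSMB9, the immunoproteasome subunit that takes the place of PSMB6, had log2 values of 8.01, 8.12 and 8.47 in control cells at 24 h and 6.92, 6.71 and 7.08 in Ota cells. All Ota arrays lay below all control arrays. The log2 fold change was -1.29 ± 0.16 (SE, n = 3 per group), which is 2.45-fold lower, with a limma adjusted p of 0.000119. PSMB10, which takes the place of PSMB7, had 8.14, 8.13 and 7.89 in control and 6.97, 6.79 and 6.70 in Ota cells at 24 h. Its groups did not overlap either. PSMB10 was 2.34-fold lower (log2 fold change -1.23 ± 0.14, adjusted p = 8.67e-05). These were the 2 members of 41 that changed by 2-fold or more at 24 h.

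PSMB8, the third replacement subunit, did not follow them. Its values at 24 h were 10.19, 10.40 and 10.14 in control and 10.12, 10.20 and 10.23 in Ota cells, and the groups overlapped. The log2 fold change was -0.06 ± 0.10 (adjusted p = 0.684), with a 95% interval of -0.27 to 0.15. Its sign turned, to 0.016, without control array 2.

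The constitutive catalytic subunits were not called at 24 h. PSMB6, the caspase-like subunit, had 11.70, 11.58 and 11.53 in control and 11.47, 11.52 and 11.34 in Ota cells (log2 fold change -0.16 ± 0.09, adjusted p = 0.185). All Ota arrays of PSMB6 lay below the control arrays. PSMB7, the trypsin-like subunit, had 12.62, 12.70 and 12.76 in control and 12.50, 12.61 and 12.63 in Ota cells (-0.11 ± 0.08, adjusted p = 0.325). PSMB5, the chymotrypsin-like subunit, had 11.41, 11.36 and 11.05 against 11.23, 10.99 and 11.02 (-0.19 ± 0.11, adjusted p = 0.229). The groups overlapped for PSMB7 and PSMB5. The 95% intervals were -0.35 to 0.03 for PSMB6, -0.28 to 0.06 for PSMB7 and -0.44 to 0.06 for PSMB5, so a fall as large as that of PSMB9 or PSMB10 lay outside each of them.

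Within each array, the log2 difference between a replacement subunit and the subunit it replaces was then compared between Ota and control, a comparison added after the values were seen. PSMB9 against PSMB6 was 2.19-fold lower with Ota at 24 h (SD of the log2 difference 0.32 in control and 0.28 in Ota cells, n = 3 each). PSMB10 against PSMB7 was 2.17-fold lower (SD 0.20 and 0.21). Neither pair of groups overlapped. PSMB8 against PSMB5 differed by 0.13 on the log2 scale, with overlap. An exact two-sided permutation test gave p = 0.10 for PSMB9, 0.10 for PSMB10 and 0.50 for PSMB8, where 0.10 is the smallest p that 3 against 3 arrays can give. At 72 h the same differences were -0.41 for PSMB9 (exact p = 0.20), -0.74 for PSMB10 (exact p = 0.10) and -0.14 for PSMB8 (exact p = 0.50).

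**Figure D1:**
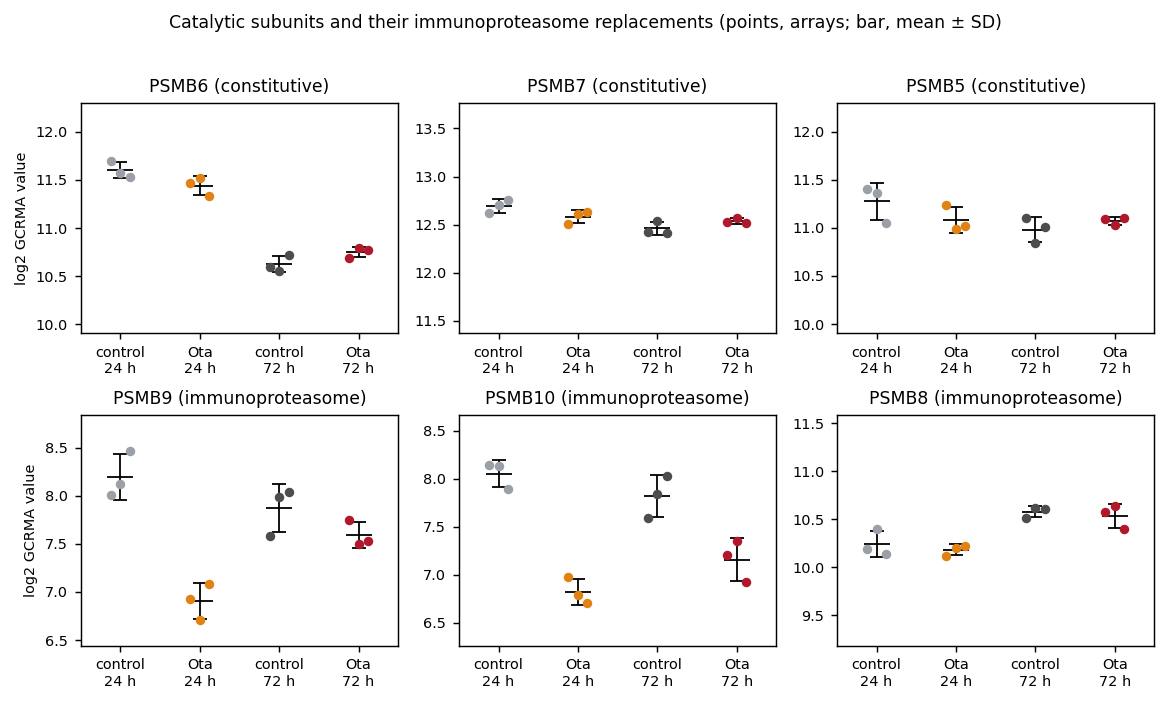
Log2 GCRMA values (vertical axis) of the constitutive catalytic subunits PSMB6, PSMB7 and PSMB5 and of the immunoproteasome subunits PSMB9, PSMB10 and PSMB8 in the 4 groups; points are arrays and bars the mean ± SD. The Ota arrays of PSMB9 and PSMB10 at 24 h lie below all control arrays of that time, and those of PSMB8 lie among them.

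Of the alpha ring, PSMA5 was the 1 member called at 24 h. PSMA5, a structural alpha subunit, had 10.91, 11.07 and 11.20 in control and 10.24, 10.37 and 10.59 in Ota cells. The groups did not overlap, and the log2 fold change was -0.66 ± 0.12 (adjusted p = 0.00149). A second probe set of PSMA5 moved in the opposite direction and is described with the other second probe sets. The other 5 tested alpha genes lay between -0.18 and 0.15. Of the constitutive beta ring, PSMB4, a non-catalytic beta subunit, fell from 12.81, 12.84 and 12.80 to 12.34, 12.45 and 12.23 (log2 fold change -0.48 ± 0.09, adjusted p = 0.00151), with no overlap; with the mean of its probe sets PSMB4 was not called (adjusted p = 0.0952). The other 6 beta genes lay between -0.20 and 0.05 and were not called.

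In the cap, the lid subunit PSMD12, a scaffold protein of the lid, had the largest fall in its brightest probe set. It had 10.51, 10.46 and 10.71 in control and 9.83, 9.42 and 9.84 in Ota cells at 24 h, a log2 fold change of -0.86 ± 0.12 (adjusted p = 0.000312), and its groups stood apart. PSMD11, also a lid scaffold, fell from 11.79, 11.83 and 11.79 to 11.45, 11.45 and 11.53 (-0.33 ± 0.08, adjusted p = 0.00705). For both genes a second probe set was higher in Ota cells, and the mean of the probe sets of PSMD12 was at 0.027. Of the 6 tested lid genes, PSMD3, PSMD6, PSMD8 and PSMD14 were not called at 24 h.

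Among the base ATPases, which thread the unfolded protein into the core, 2 of 5 fell. PSMC4 had 10.68, 10.36 and 10.53 in control and 10.04, 9.98 and 9.94 in Ota cells (-0.53 ± 0.10, adjusted p = 0.00181). PSMC3 had 10.55, 10.63 and 10.34 and then 10.13, 9.97 and 10.14 (-0.43 ± 0.09, adjusted p = 0.00429). Neither pair of groups overlapped. PSMC6 was the cap gene with the highest fold change, 0.23 ± 0.12 (adjusted p = 0.174).

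Of the 3 other base subunits, 2 fell. PSMD2, a scaffold on which ubiquitin shuttles dock, went from 11.79, 11.73 and 11.75 to 11.26, 11.35 and 11.36 (-0.43 ± 0.08, adjusted p = 0.00161). PSMD4, a ubiquitin receptor, went from 11.10, 11.00 and 11.20 to 10.70, 10.62 and 10.72 (-0.42 ± 0.08, adjusted p = 0.00278), and 2 further probe sets of PSMD4 were called lower as well, with log2 fold changes of -0.60 and -0.50. PSMD1, the other large base scaffold, was at -0.13 ± 0.09 and was not called.

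Among regulators, PSME1, a subunit of the interferon-inducible activator ring, fell from 11.09, 11.14 and 11.12 to 10.77, 10.85 and 10.86 (-0.30 ± 0.07, adjusted p = 0.00818). PSME3, the nuclear activator, was at -0.29 ± 0.13 and was not called (adjusted p = 0.102); with the replicate number as a block it was called (adjusted p = 0.0336). PSME4, an activator linked to histone degradation, was at 0.27 ± 0.11 in its brightest probe set and was not called. Its other probe sets above the filter, and a further one of PSME3, lay lower in Ota cells. They are described with the other second probe sets. PSMF1, an inhibitor of the core, was at 0.14 ± 0.11 and was not called.

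Of 7 assembly chaperones, PSMG1, which helps build the alpha ring, was called lower at 24 h. It had 10.33, 9.92 and 10.57 in control and 9.83, 9.67 and 9.98 in Ota cells, so the groups overlapped (-0.45 ± 0.15, adjusted p = 0.0362). The call was lost without control array 1, control array 3, Ota array 1 or Ota array 2, with an adjusted p of 0.0983, 0.119, 0.0796 and 0.130. PSMG3 was not called (-0.24 ± 0.10, adjusted p = 0.0800), but was with the replicate block (adjusted p = 0.0480). PSMG2, PSMG4, PSMD5, PSMD9 and PSMD10 were not called either.

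At 72 h, the response of the members had no common direction. In limma, 4 of 41 members were higher and 8 lower in Ota than in control cells, where 17.1% of all genes were higher and 14.9% lower. The members' median log2 fold change was 0.01, as it was over all genes. With a gene's probe sets averaged, 10 members were higher and 6 lower, PSMA5 turned to 0.70, and PSMB4, PSMD6 and PSMF1 lost their calls (adjusted p = 0.0690, 0.0726 and 0.305). PSMA7, PSMD1, PSMD3 and PSMD14 rose, and PSMA3, PSMA5, PSMB4, PSMB10, PSMD4, PSMD6, PSME1 and PSMF1 fell. Of these, 5 had fallen at 24 h as well: PSMA5, PSMB4, PSMB10, PSMD4 and PSME1. In the core 1 of 13 genes was higher and 3 lower, in the cap 3 of 14 were higher and 2 lower, and of the immunoproteasome 1 of 3 was lower.

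PSMB10 had the largest fall of the members at 72 h. Its values were 7.59, 7.84 and 8.03 in control and 7.20, 7.36 and 6.92 in Ota cells at 72 h, with no overlap (-0.66 ± 0.14, adjusted p = 0.00472), which is 1.58-fold lower. PSMB9 was not called at 72 h, with 7.58, 7.99 and 8.04 in control and 7.75, 7.50 and 7.53 in Ota cells (-0.28 ± 0.16, adjusted p = 0.203). Its groups overlapped.

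PSMB8 was again near 0, with 10.51, 10.62 and 10.61 in control and 10.58, 10.63 and 10.39 in Ota cells (-0.05 ± 0.10, adjusted p = 0.751); without Ota array 3 its sign turned, to 0.024. The constitutive catalytic subunits were not called. PSMB6 had 10.60, 10.56 and 10.72 in control and 10.69, 10.79 and 10.77 in Ota cells (0.13 ± 0.09, adjusted p = 0.294). PSMB7 had 12.42, 12.54 and 12.42 against 12.53, 12.57 and 12.52 (0.08 ± 0.08, adjusted p = 0.475). The groups overlapped for both. PSMB5 had 11.10, 10.84 and 11.01 against 11.09, 11.03 and 11.10 (0.09 ± 0.11, adjusted p = 0.586), with overlap too.

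Of the alpha ring, PSMA3, PSMA5 and PSMA7 were called at 72 h. PSMA3 had 11.97, 11.95 and 12.07 in control and 11.54, 11.45 and 11.46 in Ota cells (-0.52 ± 0.11, adjusted p = 0.00555), and its groups stood apart. PSMA5 had 10.90, 10.99 and 11.23 against 10.54, 10.55 and 10.49 (-0.51 ± 0.12, adjusted p = 0.00677), also without overlap. PSMA7 went the other way, with 11.96, 11.97 and 11.96 against 12.30, 12.25 and 12.22 (0.29 ± 0.07, adjusted p = 0.00896). All of these are structural subunits of the outer ring. PSMB4, of the beta ring, had 12.61, 12.74 and 12.81 against 12.40, 12.41 and 12.46 (-0.30 ± 0.09, adjusted p = 0.0211), and its call was lost without control array 2 or 3 or Ota array 1 or 2 (adjusted p from 0.0525 to 0.0821).

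In the cap, PSMD1 showed the largest rise. It had 10.35, 10.54 and 10.43 in control and 10.98, 10.79 and 10.97 in Ota cells at 72 h (0.47 ± 0.09, adjusted p = 0.0017), and all Ota arrays were above the control arrays. PSMD14, the lid enzyme that cuts ubiquitin chains off the substrate, had 11.59, 11.45 and 11.48 against 11.86, 11.77 and 11.85 (0.32 ± 0.08, adjusted p = 0.0103). PSMD3, a lid scaffold, had 9.46, 9.43 and 9.33 against 9.86, 9.84 and 9.70 (0.40 ± 0.10, adjusted p = 0.0134). The PSMD3 call was lost without control array 3 or Ota array 1 (adjusted p = 0.0529 and 0.0519).

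PSMD4 stayed lower, with 11.24, 11.34 and 11.28 in control and 10.92, 10.77 and 10.88 in Ota cells (-0.43 ± 0.08, adjusted p = 0.00246). PSMD6, a lid scaffold, had 11.43, 11.52 and 11.42 against 11.23, 11.17 and 11.18 (-0.26 ± 0.08, adjusted p = 0.0226). The groups of both genes stood apart, and the PSMD6 call was lost without control array 2 or Ota array 2 or 3 (adjusted p from 0.0603 to 0.0713). Of the 5 base ATPases, 0 were called at 72 h in limma, with log2 fold changes from -0.14 to 0.20; 1 was higher and 0 were lower at an unadjusted p below 0.05.

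PSME1 was lower at 72 h too, with 10.98, 11.06 and 11.01 in control and 10.64, 10.64 and 10.68 in Ota cells (-0.36 ± 0.07, adjusted p = 0.00279). The inhibitor PSMF1 had 10.89, 11.08 and 10.98 against 10.59, 10.60 and 10.50 (-0.42 ± 0.11, adjusted p = 0.0104). Neither gene's groups overlapped. PSME3 was at 0.29 ± 0.13 and was not called (adjusted p = 0.109), but was called higher with the replicate block (adjusted p = 0.0368).

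**Figure D2:**
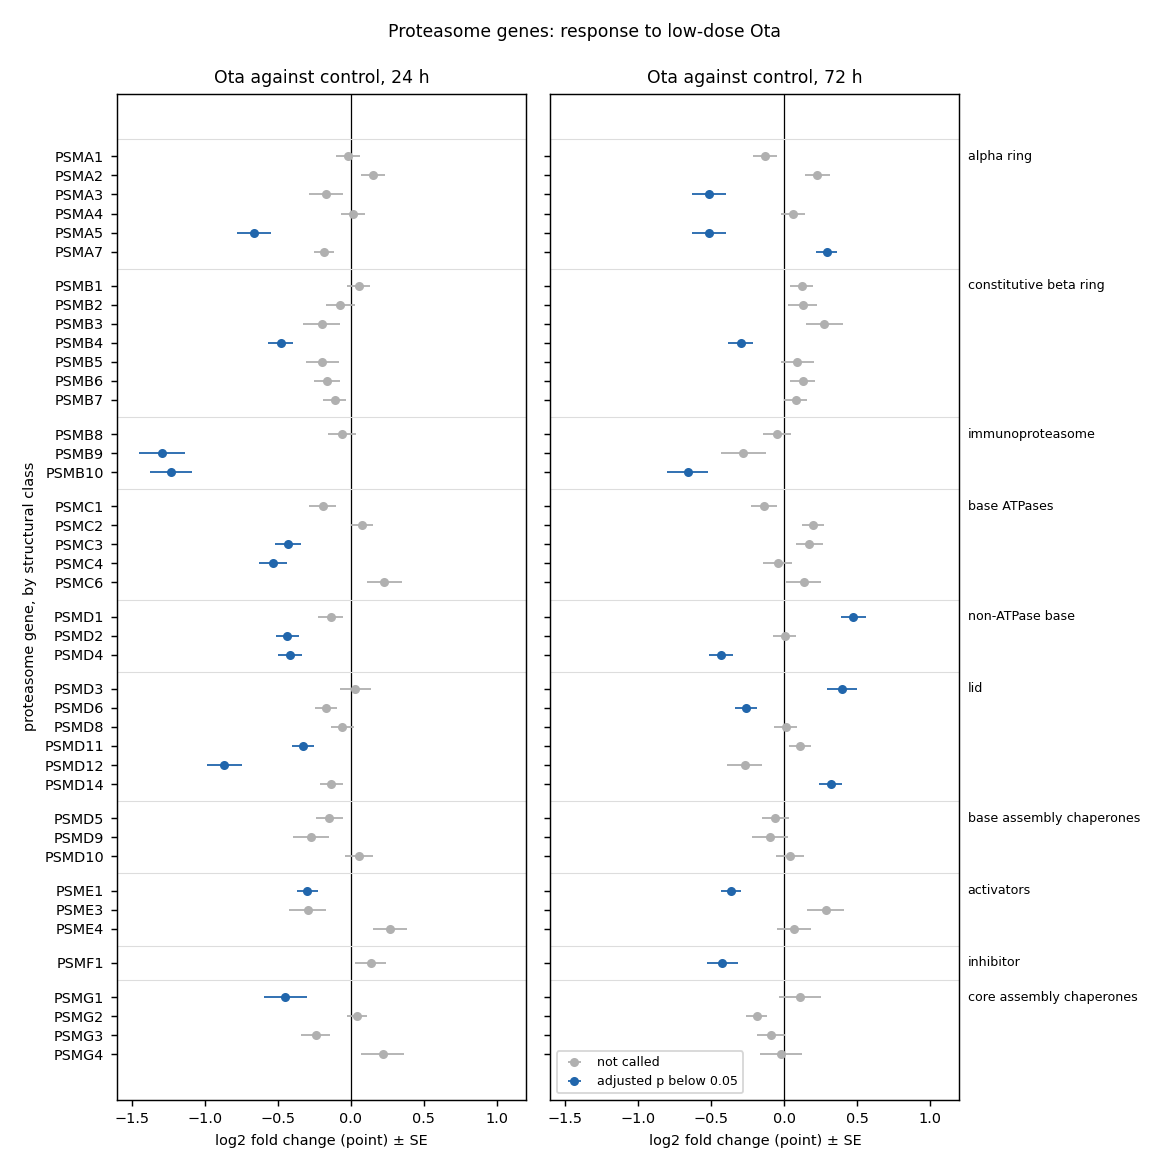
Log2 fold change of Ota over control (horizontal axis, point ± SE, n = 3 arrays per group) for the 41 tested proteasome genes (vertical axis, by structural class) at 24 h and 72 h; colour marks a limma adjusted p below 0.05. At 24 h all 12 called genes lie left of 0, with PSMB9 and PSMB10 farthest, and at 72 h called genes lie on both sides.

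The responses at the 2 times were set against each other by the interaction contrast, the Ota response at 72 h minus that at 24 h. By class, 7 of 14 cap genes, 1 of 13 core genes and 1 of 3 immunoproteasome genes had a higher response at 72 h, with medians of 0.40, 0.18 and 0.57, and a difference between the classes was not tested. In all, 10 of 41 members were higher and 1 lower, against 15.5% and 5.79% of all genes, and the medians were 0.15 and 0.09. PSMB9 had the largest difference, 1.01 ± 0.22 (adjusted p = 0.00925), as its fall at 24 h was not called at 72 h. The difference for PSMB10 was 0.57 ± 0.20 and was not called (adjusted p = 0.066). For PSMB8 it was 0.01 ± 0.13.

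Among cap genes, the base subunits PSMD1 (0.61 ± 0.12, adjusted p = 0.00596), PSMC3 (0.60 ± 0.13, adjusted p = 0.0085), PSMC4 (0.49 ± 0.14, adjusted p = 0.0285) and PSMD2 (0.44 ± 0.11, adjusted p = 0.0177) were called. The lid genes called were PSMD12 (0.59 ± 0.17, adjusted p = 0.0309), PSMD14 (0.45 ± 0.11, adjusted p = 0.0162) and PSMD11 (0.44 ± 0.11, adjusted p = 0.0159). PSMA7 (0.47 ± 0.10, adjusted p = 0.00778) was the core gene. With a gene's probe sets averaged, PSMD11 turned to -0.074 (adjusted p = 0.644), and PSMD12 (0.11, adjusted p = 0.514) and PSME3 (0.49, adjusted p = 0.0987) lost their calls. The arrays of PSMD1, PSMD14 and PSMA7 lay on opposite sides at the 2 times: every Ota array was below every control array at 24 h and above at 72 h. PSMC3 and PSME3 showed the same change of side, with 9.85, 9.83 and 9.77 in control and 9.96, 10.02 and 9.99 in Ota cells for PSMC3 at 72 h. As these genes were taken from those called by the contrast, the change of side adds no support. The share over all genes was not counted.

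PSME3, with 10.57, 10.43 and 10.42 in control and 10.32, 9.91 and 10.33 in Ota cells at 24 h, had 9.96, 9.65 and 9.91 and then 10.17, 10.03 and 10.16 at 72 h (difference 0.58 ± 0.18, adjusted p = 0.0396). PSMF1 was the 1 member with a lower response at 72 h (-0.56 ± 0.15, adjusted p = 0.0215). Leaving out single arrays ended some of these calls. That of PSMC4 held only without control 24 h array 2 or 3, Ota 24 h array 1, or array 3 of either group at 72 h, and its adjusted p was up to 0.0640 without the others. That of PSMD12 was lost without control 24 h array 3, control 72 h array 1 or 2, or Ota 72 h array 1 or 3 (up to 0.0734). That of PSME3 held only without Ota 24 h array 1 or 3, control 72 h array 1 or Ota 72 h array 2 (up to 0.0888 without the others).

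The values at single times also show how the groups moved with time in culture. Each Ota comparison set Ota cells against control cells of the same time. In control cells, core and cap genes fell together from 24 h to 72 h. In limma, 21 of 41 members were lower and 3 higher at 72 h, against 23.6% and 22.7% of all genes, and the members' median was -0.23 against 0.00 over all genes. In the core 9 of 13 genes fell (median -0.29) and in the cap 10 of 14 (median -0.54). Of the immunoproteasome, 0 genes were lower in limma, also at an unadjusted p below 0.05, and PSMB8 rose by 0.34 ± 0.10 (adjusted p = 0.013).

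The largest fall was that of PSMB3, a non-catalytic beta subunit, from 12.05, 12.12 and 11.71 at 24 h to 10.91, 10.69 and 10.87 at 72 h in control cells (-1.14 ± 0.13, adjusted p = 2.91e-05). PSMB6 fell from 11.70, 11.58 and 11.53 to 10.60, 10.56 and 10.72 (-0.98 ± 0.09, adjusted p = 6.07e-06). PSMD1 fell by 0.99, PSMD3 by 0.91, PSMD2 by 0.89, PSMB2 by 0.83, PSMD12 by 0.81 and PSMD14 by 0.81. For each of these 8 genes the control arrays of the 2 times did not overlap. As they were named for their large falls, this adds no support, and the share over all genes was not counted.

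Not all members fell. PSMC6, PSMA3 and PSMA5 lay between -0.02 and 0.03 and were not called. PSMB5 was at -0.29 ± 0.11 (adjusted p = 0.054) and was called lower with the replicate block (adjusted p = 0.0345). The regulators PSME4 (0.66 ± 0.11, adjusted p = 0.000708) and PSMF1 (0.67 ± 0.11, adjusted p = 0.000347) rose in their brightest probe sets, and PSME3 fell by 0.64. The other probe sets did not share these calls: for PSME4, 212219_at fell (-0.30 ± 0.10, adjusted p = 0.0262) and 212220_at was at 0.08 ± 0.19, and the 3 others of PSMF1 lay between 0.26 and 0.34 and were not called. Of the 7 assembly chaperones PSMD5 was the 1 that fell, by 0.32.

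In Ota cells over the same time, 17 of 41 members were lower and 4 higher, against 9.99% and 22.2% of all genes, with a median of -0.20 against 0.08. When all arrays were shifted to a common median, 10 were lower and 6 higher. In the core 8 of 13 genes and in the cap 8 of 14 fell (medians -0.26 and -0.22). PSMB6 (-0.69 ± 0.09), PSMB3 (-0.67 ± 0.13), PSMB2 (-0.63 ± 0.10) and PSMD3 (-0.54 ± 0.10) fell most. PSMD1 fell by 0.38 in Ota cells and PSMD14 by 0.36. These values share arrays with the Ota comparisons and are given beside those of control cells without a further test.

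PSMB8 and PSMB9 rose with time in Ota cells, by 0.35 ± 0.10 (adjusted p = 0.0164) and 0.69 ± 0.16 (adjusted p = 0.00713). PSMB10 was at 0.34 ± 0.14 and was not called. Leaving out single arrays moved the counts of Ota cells over time to between 10 and 19 lower and 2 and 6 higher. Leaving out any one of the 6 Ota arrays left 10 or 11 lower.

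**Figure D3:**
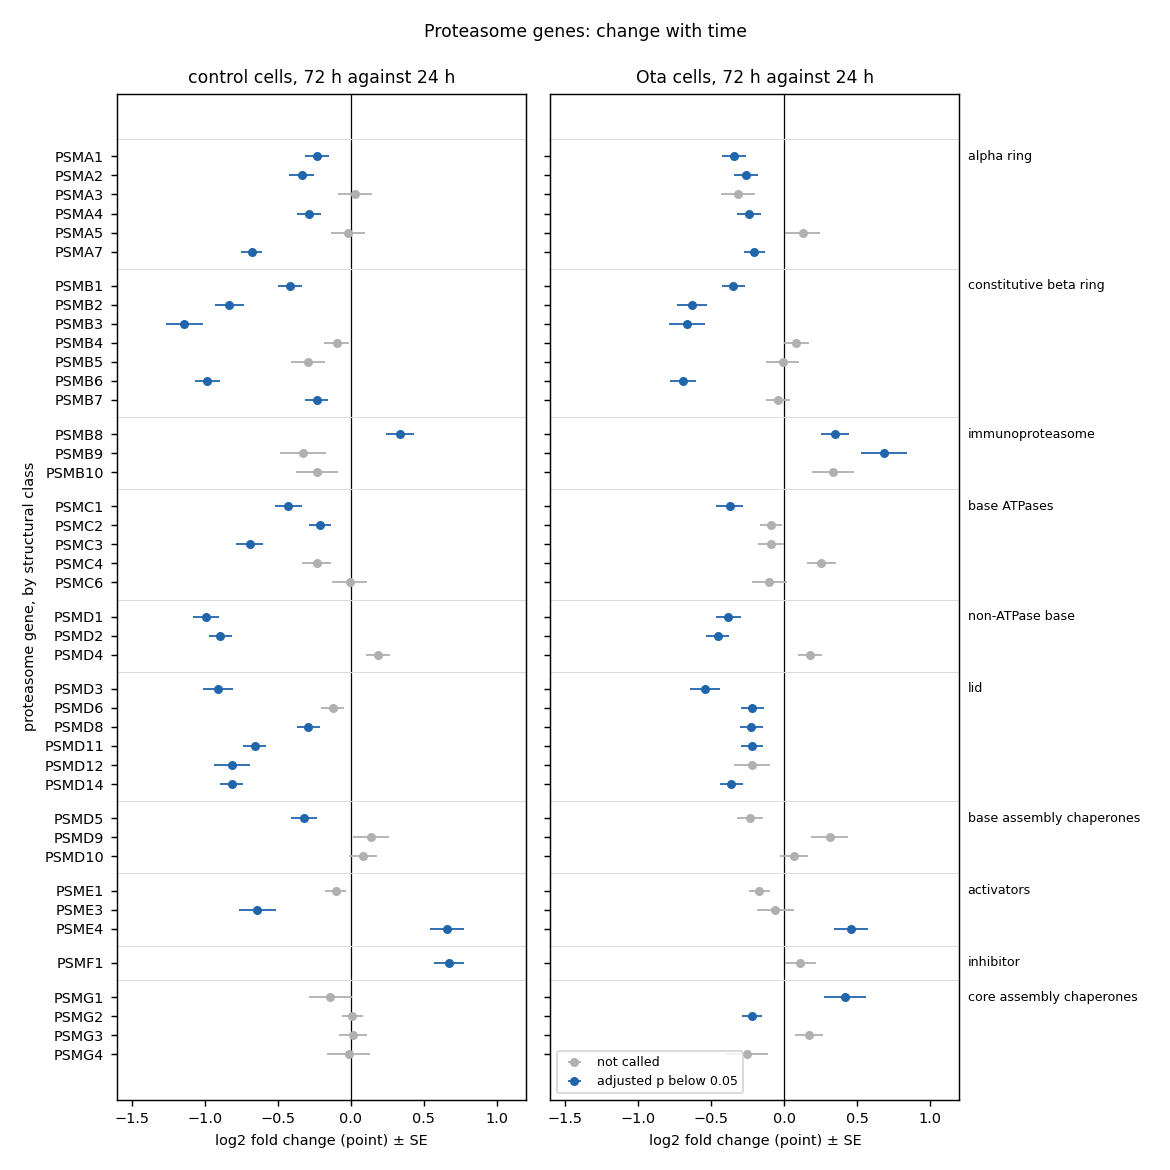
Log2 fold change from 24 h to 72 h (horizontal axis, point ± SE, n = 3 arrays per group) of the 41 tested proteasome genes (vertical axis, by structural class) in control and in Ota cells; colour marks a limma adjusted p below 0.05. Most core and cap genes lie left of 0 in both panels, and PSMB8, PSME4 and PSMF1 lie right of 0 in control cells.

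Which probe set was read mattered for several members. Besides the brightest probe set, 17 of the 41 tested genes had at least 1 more above the filter, 27 in all, and the difference between such a second probe set and the brightest one was tested within arrays. At 24 h this difference was higher in Ota cells for 8 of the 27, in 7 genes, and lower for 3, in 2 genes. Over all 8757 such pairs of the array, 17.3% were higher and 12.2% lower. At 72 h 9 were higher and 2 lower, against 9.01% and 5.69%, and the 8 of 24 h were all among the 9. Each of the 8 second probe sets was itself called higher in Ota cells at 24 h.

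The largest was 230300_at of PSMA5. Its log2 values were 6.75, 5.99 and 7.09 in control and 10.91, 11.17 and 10.95 with Ota after 24 h. At 72 h control arrays read 8.78, 8.60 and 8.81 and Ota arrays 10.41, 10.71 and 10.78, so the groups stood apart at both times. This probe set was 21.1-fold higher in Ota cells at 24 h (log2 fold change 4.40 ± 0.23, adjusted p = 3.42e-07) and 3.75-fold higher at 72 h, while the brightest PSMA5 probe set was lower at both times. The difference between them moved by 5.06 ± 0.24 at 24 h and 2.42 ± 0.24 at 72 h (adjusted p = 8.24e-08 and 5.2e-05). It also rose with time in control cells, by 2.14 ± 0.24. Between the 2 times, the response of 5 of the 27 differences was lower at 72 h than at 24 h, where 3.94% of all pairs were lower and 2.41% higher.

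For PSMD11, 208776_at had 6.87, 6.92 and 7.20 in control and 9.49, 9.60 and 9.37 with Ota after 24 h. Its 72 h values were 6.89, 7.04 and 6.73 against 8.74, 8.76 and 8.86. It was 5.61-fold higher at 24 h, and the difference from the brightest probe set moved by 2.82 ± 0.13 (adjusted p = 6.64e-08). For PSMC2, 201067_at had 9.97, 10.28 and 10.25 against 11.89, 12.29 and 11.91 at 24 h, and 10.34, 10.49 and 10.39 against 11.44, 11.35 and 11.49 at 72 h. A further PSMC2 probe set, 238020_at, had 8.29, 7.78 and 8.46 against 9.94, 10.16 and 9.99 at 24 h. Both differences moved by 1.79 and 1.78 at 24 h, while the brightest PSMC2 probe set was at 0.08 ± 0.08 and was not called.

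PSMD12 was read by 202353_s_at at 9.26, 9.09 and 9.36 in control and 10.24, 10.20 and 10.01 in Ota cells at 24 h, 1.89-fold higher, where its brightest probe set was 1.82-fold lower. PSMB2, a non-catalytic beta subunit, was read by 238425_at at 5.45, 5.78 and 5.73 against 7.60, 7.43 and 7.08. PSMA2 was read by 201316_at at 9.49, 9.21 and 9.57 against 10.46, 10.27 and 10.37. In none of these did the groups overlap. As these probe sets were named because their differences were called higher, this adds no support. The share over all pairs was not counted. The eighth, 209334_s_at of the base chaperone PSMD9, rose from a level near the floor, 3.67, 3.25 and 3.78, to 5.42, 5.06 and 5.63. Of the 8 second probe sets, 1 carries a RefSeq mRNA accession in the platform annotation, as do the brightest probe sets of 5 of the 7 genes. This does not set the 8 apart. Of the other second probe sets, only 201676_x_at of PSMA1, 202243_s_at of PSMB4 and 200988_s_at of PSME3 carry one.

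In PSME4 the second probe sets went down against the brightest one. 212219_at had 8.91, 9.03 and 8.87 in control and 7.93, 7.97 and 7.94 in Ota cells at 24 h (log2 fold change -0.99 ± 0.10, adjusted p = 2.16e-05), and 212220_at was at -0.67 ± 0.19. The brightest was at 0.27 ± 0.11. In PSME3, 209853_s_at was lower (-0.72 ± 0.17) as its brightest probe set was at -0.29 ± 0.13. In control cells at 24 h, 212219_at was itself 0.86 above the probe set that is brightest over all 12 arrays. In a fit to the 6 arrays of 24 h alone, 2 differences were called lower, and 3 were lower at an unadjusted p below 0.05. The other 16 differences, among them those of PSMB4, PSMD1 and PSMD4, were not called at 24 h. PSMB8, PSMB9 and PSMB10 each have 1 probe set, so none of their values could be compared in this way.

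**Figure D4:**
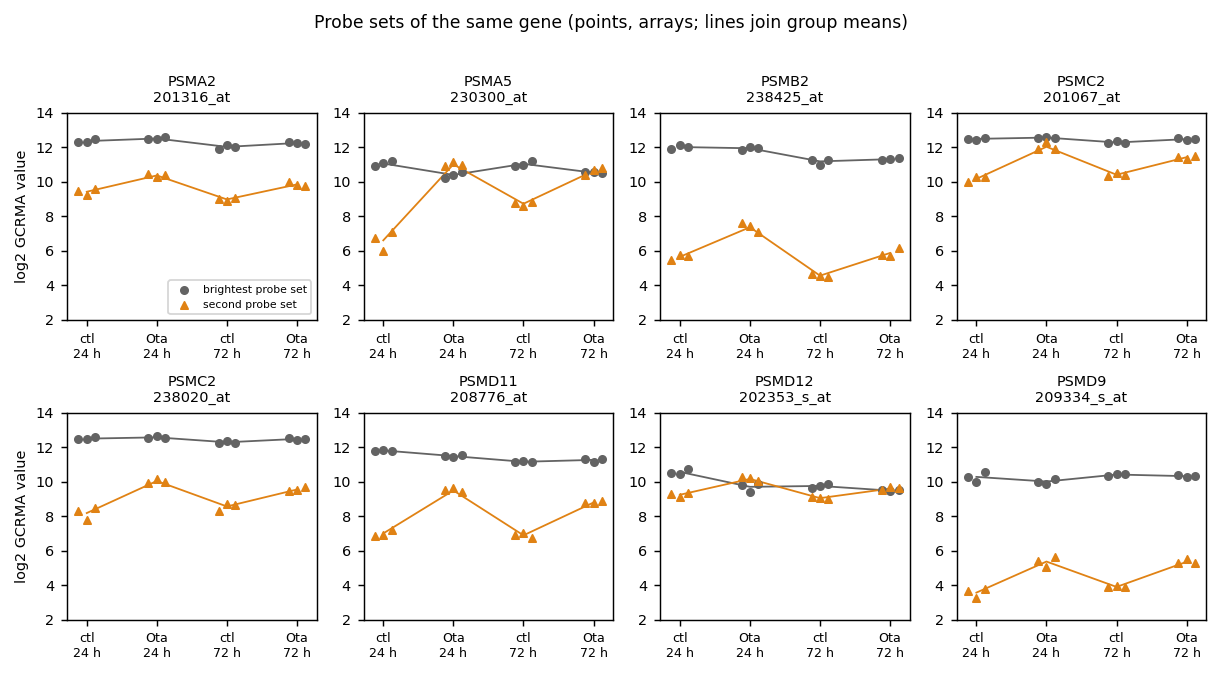
Log2 GCRMA values (vertical axis) of second probe sets and of the brightest probe set of the same gene in the 4 groups; points are arrays and lines join group means. The 8 second probe sets called higher at 24 h are shown; with each, the Ota arrays of 24 h lie above the control arrays, and the brightest one of the gene is not called higher at that time.

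Other genes of the pathway were read from lists. Of 11 proteasome-associated and assembly factors, 3 fell at 24 h and 4 at 72 h, and the rest were not called (medians -0.09 and -0.16). The lower calls were 27.3% and 36.4% of the list, against 21.6% and 14.9% of all genes. The receptor ADRM1 (-0.49 ± 0.10, adjusted p = 0.0034) and the deubiquitinase UCHL5 that it recruits (-0.83 ± 0.18, adjusted p = 0.00451) fell at 24 h. ECPAS, an adaptor of the proteasome, fell at both times, by 0.46 and 0.62. At 72 h, the cap-bound thioredoxin-like protein TXNL1 (-0.70 ± 0.08, adjusted p = 0.000133) and the stress-inducible ZFAND2A (-1.09 ± 0.20, adjusted p = 0.00197) were lower than in control cells. Neither was called lower in Ota cells over time. From 24 h to 72 h ZFAND2A rose by 2.46 in control and by 1.45 in Ota cells. TXNL1 rose by 0.63 in control cells and was at 0.14 in Ota cells, which was not called. POMP, the maturation factor of the core, was at 0.03 ± 0.09 and 0.16 ± 0.09.

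Of the NRF1 list, 8 of 10 genes were tested, and 1 fell at 24 h and 2 at 72 h, which is 12.5% and 25% of the list against 21.6% and 14.9% of all genes. NFE2L3, a relative of NRF1, fell from 7.48, 7.19 and 7.87 to 5.00, 3.81 and 3.58 at 24 h, which is 10.4-fold lower (log2 fold change -3.38 ± 0.30, adjusted p = 1.59e-05), although the Ota values lay near the floor, where a fold change is uncertain. At 72 h it was 3.08-fold lower. NFE2L1, NRF1 itself, was at 0.10 ± 0.15 at 24 h and fell by 0.53 at 72 h (adjusted p = 0.0199), with 11.70, 11.51 and 11.75 in control and 10.95, 11.38 and 11.04 in Ota cells. From 24 h to 72 h NFE2L1 mRNA rose by 1.17 in control cells (limma adjusted p = 8.74e-05) and by 0.54 in Ota cells (adjusted p = 0.0185). These are mRNA levels, and a link between NFE2L1 and the members was not tested. The 8 genes had medians of -0.01 and -0.03.

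Of 11 tested genes for ubiquitin and its carriers, 2 rose at 24 h and 3 at 72 h (medians 0.05 and 0.14). These were 18.2% and 27.3% of the list, against 9.44% and 17.1% of all genes. The ubiquitin-activating enzyme UBA6 (0.44 ± 0.11, adjusted p = 0.00773; 0.37 ± 0.11 at 72 h) and the shuttle factor UBQLN2 (0.51 ± 0.12, adjusted p = 0.00693; 0.48 ± 0.12 at 72 h) rose at both times. UBA1, the main activating enzyme, rose at 72 h (0.40 ± 0.11, adjusted p = 0.018).

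Of 18 tested genes for antigen processing and interferon regulation, 1 rose and 4 fell at 24 h, and 1 rose and 5 fell at 72 h (medians 0.02 and -0.02). The share that fell was 22.2% at 24 h, near the 21.6% of all genes, and 27.8% at 72 h, against 14.9%. The share that rose was 5.56% at both times, against 9.44% and 17.1% of all genes. TAP1, the neighbour of PSMB9, had 8.55, 8.57 and 8.80 in control and 8.52, 8.51 and 8.56 in Ota cells at 24 h (-0.11 ± 0.09, adjusted p = 0.352), with overlap, so it was not called where PSMB9 fell. TAP2, its partner in peptide transport, rose (0.88 ± 0.16, adjusted p = 0.00196; 0.56 ± 0.16 at 72 h). The interferon regulators IRF3 (-0.87 ± 0.11, adjusted p = 0.000192) and IRF9 (-0.70 ± 0.12, adjusted p = 0.00131) fell at 24 h.

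At 72 h the peptide-trimming enzyme ERAP1 (-1.11 ± 0.10, adjusted p = 2.00e-05) and the chaperone CALR of MHC class I loading (-0.73 ± 0.10, adjusted p = 0.000337) were lower than in control cells. From 24 h to 72 h ERAP1 rose by 1.15 and CALR by 0.71 in control cells. In Ota cells they were at 0.17 and -0.09 over that time and were not called. IRF9 was lower at 72 h as well (-0.74 ± 0.12, adjusted p = 0.001). IRF1, a known activator of PSMB9, was at 0.06 ± 0.28 at 24 h and -0.58 ± 0.28 at 72 h and was not called.

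Of the 8 genes that share only the start of the name, 5 were tested. In limma, 1 was higher and 3 lower in Ota cells at 24 h, where 9.44% and 21.6% of all genes were. At 72 h 2 were higher and 0 lower, where 17.1% and 14.9% of all genes were. Whether they moved with the members was not tested. PSMB8-AS1, the antisense gene of PSMB8, had 6.71, 6.16 and 7.52 in control and 5.29, 5.30 and 5.30 in Ota cells at 24 h (-1.50 ± 0.31, adjusted p = 0.00365), whereas PSMB8 itself was not called. PSMC3IP, a factor of homologous recombination, fell at 24 h (-0.63 ± 0.14, adjusted p = 0.00583) and rose at 72 h (1.14 ± 0.14, adjusted p = 0.000173). Its arrays lay at 8.60, 8.75 and 9.17 against 8.20, 8.25 and 8.17 at 24 h, and 7.73, 7.66 and 7.99 against 8.79, 8.99 and 9.02 at 72 h. PSMD6-AS2 was higher at 24 h (1.69 ± 0.30, adjusted p = 0.00144) and at 72 h (0.85 ± 0.30, adjusted p = 0.0498), where its arrays overlapped. Had these genes been counted as members, 5 more would have been tested.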

How the data were processed

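Samples were grouped by their titles. The deposited values are log2 expression values per probe set that the authors made with GCRMA, per the submitters' processing notes; its version and settings are not given in the sources used here. GCRMA subtracts background by probe sequence, normalizes arrays to common quantiles and summarises probes, so low values sit on a floor and a shared shift of most transcripts would be masked. Arrays have no read depth, and their number limits the precision.

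Gene names came from the platform annotation. Of 54675 probe sets, 41097 had 1 symbol, and 62 control probe sets were left out. Each of 19775 genes was read from its brightest probe set by mean log2 value, and tested where above log2 4 on at least 3 arrays, which left 10699. Of the 41 members tested, 15 were read from probe sets of the s_at kind and 3 of the x_at kind, whose probes can match related transcripts.

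In limma 3.58.1 (R 4.3.3), lmFit with 1 mean per group over all 12 arrays and eBayes gave each contrast, with Benjamini-Hochberg adjustment over all genes and calls at an adjusted p below 0.05. Tested on simulated data for the 24 h comparison over 10699 genes, the fit recovered 31% of genes changed by 0.5 and 85% of those changed by 1 on the log2 scale. Unchanged genes made up 6.06% and 6.59% of its calls. The simulation changed 200 genes, whereas 21.6% of genes were called lower and 9.44% higher in the data. The adjustment depends on how many genes change, so these rates do not carry over to the data. Second probe sets were tested by limma on the within-array difference from the brightest one, over 8757 pairs; this test and the comparison of replaced with replacing subunits were added after the data were seen. Promoters are RefSeq windows of GRCh38.p14.

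Same-numbered control and Ota arrays of 24 h deviated together (correlations of 0.323 to 0.455), so the numbers may pair those samples. The labels do not state a pairing, and the main fit did not use the numbers. With them as a block, 14 members rather than 12 were lower at 24 h. At 72 h the correlations were 0.0674 to 0.268, and 1 of 3 was below 0.1. Between Ota arrays of 24 h and control arrays of 72 h they were 0.231 to 0.262. The members, gene lists and tests were chosen with earlier results of these data known. Genes named were the catalytic subunits and their replacements, up to 3 called genes per structural class with the smallest p in each Ota comparison and in their difference, and up to 3 called genes per pathway list; others were chosen after their values were seen. Alternatives covered the choice of probe set, filter, scaling, replicate block, eBayes settings, compared groups alone and leaving out each array.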

Additional observations from a re-analysis of the deposited data

Results flagged for a closer look

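The Ota response of 11 members differed between 24 h and 72 h by the interaction contrast in limma. The response at 72 h minus that at 24 h, on the log2 scale, was 1.01 for PSMB9, 0.61 for PSMD1, 0.60 for PSMC3, 0.59 for PSMD12, 0.58 for PSME3, 0.49 for PSMC4, 0.47 for PSMA7, 0.45 for PSMD14, 0.44 for PSMD2, 0.44 for PSMD11 and -0.56 for PSMF1. Over all genes, 15.5% had a higher and 5.79% a lower response at 72 h.

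The difference between a second probe set and the brightest one of the same gene responded less at 72 h than at 24 h in 5 pairs. The response at 72 h minus that at 24 h was -2.64 for PSMA5 (230300_at), -0.966 and -0.997 for PSMC2 (201067_at and 238020_at), -1.03 for PSMD11 (208776_at) and -0.96 for PSMD12 (202353_s_at), where 3.94% of all pairs had a lower and 2.41% a higher response at 72 h.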

How the results depend on the processing

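Over 44 results for single members in the Ota comparisons, 818 recomputed values kept direction and side of the threshold, 43 lost the call and 8 turned sign. Read from an average over all probe sets of a gene, PSMA5 turned to 1.87 at 24 h and 0.70 at 72 h, PSMD11 to 1.08 at 24 h and -0.074 in the difference between times, PSMD12 to 0.027 and PSMB7 to 0.033 at 24 h. Leaving out single arrays, PSMB8 ranged from -0.11 to 0.016 at 24 h and from -0.096 to 0.024 at 72 h. With that average the calls of PSMB4 at both times, PSMD6 and PSMF1 at 72 h, and PSMD12 and PSME3 in the difference were lost, and 7 members were higher at 24 h, 10 higher at 72 h and 3 lower in the difference. With every probe set on its own, 9 were higher and 19 lower at 24 h, 14 higher and 13 lower at 72 h, and 5 lower in the difference, of 68 probe sets. Without a filter, 2 were lower in the difference, and the calls of PSMG1 at 24 h and of PSMD12 and PSME3 in the difference were lost; that of PSMG1 was also lost in a fit to the compared groups alone. With arrays shifted to a common median, 10 were lower and 6 higher from 24 h to 72 h in Ota cells.

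Leaving out single arrays gave 0 to 1 members higher and 11 to 13 lower at 24 h, 3 to 5 and 6 to 9 at 72 h, 7 to 10 and 1 to 2 in the difference, 3 to 4 and 17 to 21 in control cells over time, and 2 to 6 and 10 to 19 in Ota cells over time. Second probe sets lower at 24 h ranged from 3 to 4, and at 72 h from 0 to 3. With the replicate block, 0 members were higher and 14 lower at 24 h, 5 and 8 at 72 h, and 12 and 1 in the difference. Besides the block values given with PSME3, PSMG3 and PSMB5, the block made the difference of PSMD3 (adjusted p = 0.0294) and PSMG1 (adjusted p = 0.0387) called, made PSMA3 lower in Ota cells over time (adjusted p = 0.0315) and PSMD8 lose its call there (adjusted p = 0.0503), and changed no other call of a member. The cause of these changes was not tested. Scaling moved the median of all genes by at most 0.07, and leaving out the filter by at most 0.11.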
